A study of Homo sapiens with 12 samples.

Results

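The comparison described here is that of lipopolysaccharide (LPS) with no LPS in Mono Mac 6 (MM6) cells that lack 5-lipoxygenase (5-LO), the enzyme that starts leukotriene synthesis from arachidonic acid. It was made over 801 small RNAs that are listed both in the table of libraries with LPS and in the table of libraries without it, out of 1121 RNAs listed in either table when miRNA precursor entries are left out, and out of 1380 entries of every kind. The 801 RNAs comprise 233 mature miRNAs, 285 small nucleolar RNAs (snoRNAs), 219 entries annotated as piRNAs, 57 tRNA entries, 4 small cytoplasmic RNAs (the Y RNAs) and 3 rRNA entries. MM6 is an established human monocytic leukaemia line, and all 4 groups of the study were differentiated with 1 ng/mL TGF-b and 50 nM calcitriol for 72 h. The 5LO-KO cells carry the genotype ALOX-5 -/-, made with CRISPR/Cas9, and the WT cells carry the intact gene. Groups named LPS received 1 µg/mL LPS for 6 h. Each group holds 3 libraries, so 6 of the 12 libraries of the series enter the comparison, and the other 6 are the WT libraries set beside them. The study worked with 2 single-cell clones of the knockout, and the labels do not say which clone gave which library. Small RNA-Seq does not read the ALOX5 mRNA, so these tables hold no check of the knockout itself.

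LPS is the cell-wall glycolipid of Gram-negative bacteria. Monocytes recognise it through TLR4, whose adaptors MyD88, IRAK1 and TRAF6 lead to NF-kB. miR-146a and miR-146b are NF-kB targets that repress IRAK1 and TRAF6 and so form a brake on the pathway, whereas miR-155, made from the transcript BIC, is a further miRNA known to follow TLR signals in myeloid cells. A miRNA is cut from a hairpin by Drosha and Dicer as a duplex of a 5p and a 3p arm. One arm, the guide, is usually kept by Argonaute, and the other, the passenger, is usually degraded, so a passenger arm is as a rule the rarer of the pair.

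The RNAs that rose most came from hairpins of this feedback. The mature arms are shown because miR-146a-5p and miR-146b-5p share their seed, the bases 2 to 8 that pair with a target, whereas their opposite arms do not share one. Sequences are those of RefSeq, which holds 195 of the 233 mature miRNA names, and capitals mark the seed.
miR-146a-5p: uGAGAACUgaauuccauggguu
miR-146b-5p: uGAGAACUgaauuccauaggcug
miR-146a-3p: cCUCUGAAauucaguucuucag
miR-146b-3p: gCCCUGUGgacucaguucuggu
miR-155-5p: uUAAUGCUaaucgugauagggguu
miR-181a-3p: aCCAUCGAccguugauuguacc
miR-31-5p: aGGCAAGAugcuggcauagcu
let-7d-3p: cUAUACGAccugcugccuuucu

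The hairpin MIR146B, of 73 bases, is shown with the 3p arm in capitals, because this arm had the highest ratio of LPS to no LPS among the RNAs counted.
MIR146B: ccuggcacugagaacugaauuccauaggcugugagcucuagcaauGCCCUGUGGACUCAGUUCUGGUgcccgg
On GRCh37, the assembly also called hg19 that the authors annotated against, it lies at chr10:104196269-104196341 on the plus strand and overlaps no other GENCODE gene. MIR146A lies at chr5:159912359-159912457 on the plus strand, in an exon of the long non-coding RNA gene MIR3142HG. The 300 bases around the start of MIR3142HG (250 before it and 50 after it, chr5:159895008-159895307, plus strand) hold 1 match to a form of the NF-kB motif, GGG, any 2 bases and TTTCC, that was searched on both strands. It begins at base 131 of the window and is in capitals.
MIR3142HG promoter: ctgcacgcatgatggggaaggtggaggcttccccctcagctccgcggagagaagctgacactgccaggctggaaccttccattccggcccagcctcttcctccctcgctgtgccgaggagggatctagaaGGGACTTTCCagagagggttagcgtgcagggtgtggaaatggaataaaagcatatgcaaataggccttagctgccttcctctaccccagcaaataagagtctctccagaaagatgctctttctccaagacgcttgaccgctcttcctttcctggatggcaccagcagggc
Of 35116 RefSeq promoters of this length, 671 (1.91%) hold a match. The windows of MIR155HG, VMP1, MIR222HG, MIR31HG and MIR181A1HG, hosts of other miRNAs named below, hold none. A match is a description of these letters only.

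The tables hold 1 mean of normalized counts per group, not a value per library. The 2 tables were normalized apart, and every library with LPS is in one of them, so LPS and the table cannot be told apart. The median log2 ratio of LPS over no LPS across 433 RNAs with both means of at least 50 was -0.18 and was subtracted from every RNA, and the change so obtained is called the centred log2 change. Within the 69 mature miRNAs at this level the median was -0.26. An RNA was counted when the mean of its 2 centred group means was at least 10, and it was called when it was at least 2-fold higher or lower. Because a mean of 3 libraries of whole reads can take only certain values, the reads behind low means could be worked out, and with them the relative depth of each library. The size factors were 1.34, 0.945 and 0.725 for the 5LO-KO libraries without LPS and 1.30, 0.835 and 0.812 for those with LPS. Libraries are named a, b and c from the deepest to the shallowest, since no replicate number belongs to them. Low-level RNAs varied between the 3 libraries beyond counting by a coefficient of variation of 38.8% without LPS and 52.7% with LPS. These values come from means of 4 to 10, and with means up to 20 they were 42.0% and 31.9%, so the order of the groups turned. An interval given for a change is a 95% interval that includes this spread unless it is named a counting interval, and no p-value is given. "Rose" and "fell" are kept for called RNAs whose interval excludes 0.

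With LPS, 10 of 547 counted RNAs were past 2-fold higher (1.83%) and 6 were past 2-fold lower (1.1%). Of these, 4 rose and 4 fell (0.731% in each direction). The 4 that rose were miR-146b-3p, miR-146a-5p, miR-146b-5p and miR-21-3p. The 4 that fell were let-7d-3p, the snoRNAs U73b and ACA56 and the tRNA entry Tyr-TAC. Without centring, 4 RNAs were past 2-fold higher and 11 past 2-fold lower, so the balance of directions rests on the offset. With a pseudocount of 1, the interval stayed below 0 for 1 of the 4 that fell, Tyr-TAC, and reached 0 for let-7d-3p, U73b and ACA56. These 3 had means below 10 with LPS and so were counted only through the group without LPS, where they were high. At a level of 50 in place of 10, 1 RNA fell. For 445 of the 547 RNAs (81.4%) the change was below 0.5 on the log2 scale in either direction. Among the 110 counted mature miRNAs, 7 were past 2-fold higher (6.36%) and 2 were past 2-fold lower (1.82%). In WT cells the same count gave 6 of 110 mature miRNAs higher (5.45%) and 1 lower (0.909%).

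**Figure D1:**
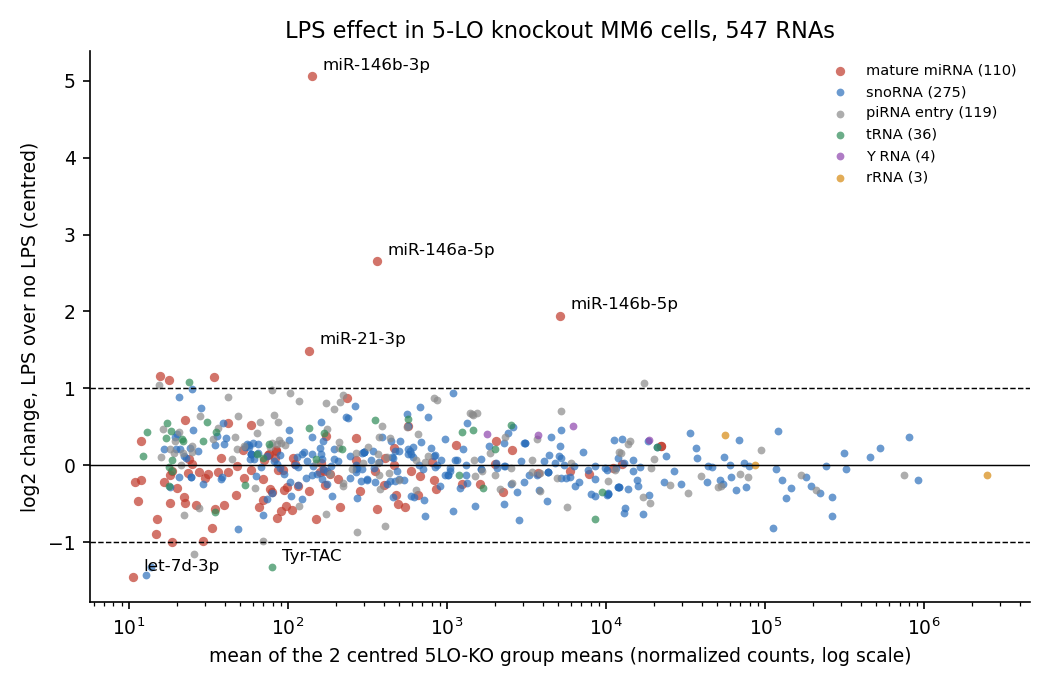
Each point is 1 of 547 counted RNAs in 5LO-KO cells, coloured by RNA type, with its level in normalized counts on a log axis and its centred log2 change with LPS on the vertical axis; dashed lines mark 2-fold. miR-146b-3p (5.06), miR-146a-5p (2.65), miR-146b-5p (1.95) and miR-21-3p (1.49) stand above the other RNAs, most of which lie within 0.5 of 0.

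miR-146b-3p had a mean of 8.22 without LPS, from 11, 9 and 5 reads in libraries a, b and c, and 243 with LPS. The 3 libraries without LPS were close to each other after scaling, at 8.23, 9.52 and 6.90 normalized reads. With less than 10 in this group, it was counted only through the group with LPS, where it was high. The centred rise was 33.5-fold (log2 5.06, interval 3.84 to 6.29). The WT cells started from the same low level, at 7.997, and reached 154, a log2 change of 4.45. The difference between the genotypes was 0.61, with an interval of -0.92 to 2.14 that includes 0.

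miR-146a-5p rose 6.28-fold, from a mean of 100.1 to 555 (log2 2.65, interval 1.57 to 3.74). In WT cells it went from 66.9 to 468, a log2 change of 2.99. Its opposite arm, miR-146a-3p, lay below the level counted and is given by reads. It had 3, 0 and 0 reads in the libraries without LPS and 9, 6 and 16 reads in those with LPS. All 3 libraries with LPS lay above all 3 without it, as for 7 (4.9%) of 143 RNAs with means up to 20 and recovered libraries. The order of its libraries is therefore a description only. Its log2 change of 4.09 (interval 1.82 to 6.37) rests on 3 reads in the denominator, with a counting interval of 2.08 to 6.10.

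miR-146b-5p was the most abundant of the 4 that rose. It stood at 2131 without LPS and at 7241 with LPS, a rise of 3.85-fold (log2 1.95, interval 0.88 to 3.01). The WT change was 1.73, from 1268 to 3704. miR-21-3p, the passenger arm of miR-21, rose 2.81-fold from 71.7 to 178 (log2 1.49, interval 0.40 to 2.58), with a WT change of 1.57. Its hairpin lies in an exon of the protein-coding gene VMP1 at chr17:57918627-57918698 on the plus strand. For none of the 4 did the interval of the difference between the genotypes exclude 0.

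The other 3 mature miRNAs past 2-fold higher had intervals that reach 0. miR-181a-3p, the passenger arm of MIR181A1 (chr1:198828173-198828282, minus strand, within an intron of MIR181A1HG), went from 21.5 to 42.0 (log2 1.15, interval -0.01 to 2.31), and from 19.4 to 27.4 in WT cells. miR-221-5p, outside the rule for named RNAs and chosen after its values were seen, went from 11.3 to 21.6 (log2 1.11, interval -0.12 to 2.35). Its libraries without LPS held 23, 8 and 6 reads.

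miR-31-5p, the third of them, is a miRNA often lost or raised in tumours, and its hairpin lies at chr9:21512114-21512184 on the minus strand within MIR31HG. It was listed at 0 in both WT groups, in which 3 reads over the group would give a mean of 0.953 without LPS and 0.868 with LPS. In 5LO-KO cells it had 24, 4 and 5 reads without LPS and 22, 13 and 20 reads with LPS. All 6 knockout libraries therefore held reads of it. Its mean of 9.70 without LPS was below 10, so it was counted only through the group with LPS, where it was higher. After scaling and centring, these were 18.0, 4.23 and 6.90 against 19.2, 17.6 and 27.9 normalized reads. Library a without LPS lay far above b and c and overlapped the libraries with LPS. The log2 change was 1.15 (interval -0.11 to 2.41), and it was 1.95 without that library, 0.80 without library b and 0.96 without library c of the same group, and 0.92 without library c with LPS.

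**Figure D2:**
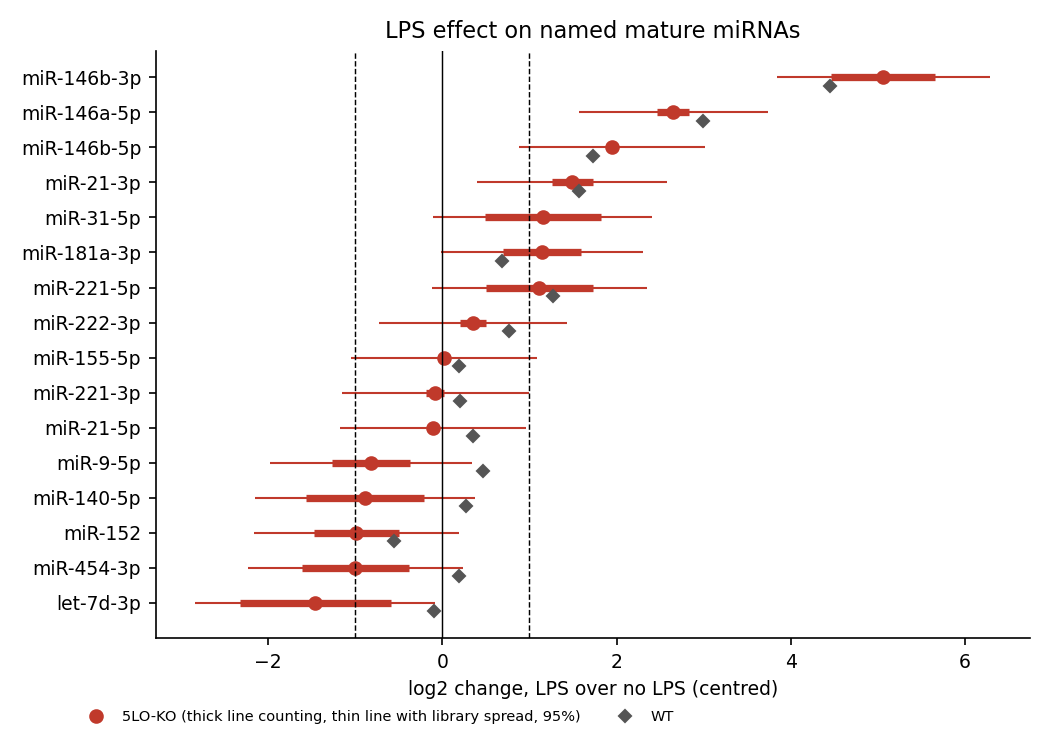
Centred log2 change with LPS (horizontal axis) of 16 mature miRNAs in 5LO-KO cells (circles) and WT cells (diamonds); thick lines are 95% counting intervals, thin lines add the spread between libraries, and dashed lines mark 2-fold. miR-146b-3p, miR-146a-5p, miR-146b-5p and miR-21-3p lie to the right of 0 with their whole thin line, miR-155-5p lies at 0.02, and let-7d-3p at -1.46.

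Of a list of 17 miRNAs known to follow LPS or NF-kB, 11 were in both tables and 8 were counted. Of the 8, 3 were past 2-fold higher, all 3 of them with an interval above 0 (miR-146a-5p, miR-146b-5p and miR-21-3p), against 6.36% of all mature miRNAs counted. The list's median was 0.18, beside -0.10 over the mature miRNAs counted and 0.00 over all RNAs counted. The list was chosen with earlier results of these data known.

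miR-155-5p, an abundant miRNA here, had a mean of 1998 without LPS and 1783 with LPS. After centring this was a log2 change of 0.02 (interval -1.05 to 1.09), and the WT value was 0.19. The guide arms miR-21-5p (3885 and 3188, log2 -0.11) and miR-221-3p (611 and 509, log2 -0.08) were close to the table median too. miR-222-3p, from the same transcript as miR-221-3p, went from 237 to 266 (log2 0.35, interval -0.73 to 1.43).

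miR-9-5p, which has been described as LPS-responsive in monocytes, was at 42.3 without LPS and 21.2 with LPS (log2 -0.82, interval -1.98 to 0.34). In WT cells it was at 16.2 and 19.7 (log2 0.46). The difference of -1.28 had an interval of -2.74 to 0.19. miR-132-3p and miR-147b were at or below 1.62 in both 5LO-KO groups, and miR-9-3p was listed at 0 in both.

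The fall of let-7d-3p, the passenger arm of let-7d, could be followed library by library. It had 22, 13 and 12 reads without LPS and 10, 2 and 4 reads with LPS. On the normalized scale these were 16.5, 13.8 and 16.6 against 8.71, 2.71 and 5.58 after centring, so the groups did not overlap. Of 143 RNAs with means up to 20 and recovered libraries, 10 (6.99%) lay wholly lower with LPS and 7 (4.9%) wholly higher, so the order of the libraries is a description only. The change was a fall of 2.75-fold (log2 -1.46, interval -2.84 to -0.09). let-7d-3p was counted only through the group without LPS, where it was high, and its interval reached 0 with a pseudocount of 1. In WT cells the means were 10.9 and 8.97, a log2 change of -0.10. The difference of -1.36 between the genotypes had an interval of -3.07 to 0.35. The guide arm let-7d-5p, of the same hairpin (chr9:96941116-96941202, plus strand, in an exon of MIRLET7A1HG), was at 218 and 170, a log2 change of -0.18.

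The next 4 mature miRNAs, from the lowest change upward, had counting intervals below 0 but intervals with library spread that reach 0. miR-454-3p, which carries the seed of the miR-130 family, went from 24.7 to 10.9 (log2 -1.0002, interval -2.23 to 0.23), miR-152 of the miR-148 family from 38.8 to 17.2 (log2 -0.99), and miR-140-5p from 19.3 to 9.22 (log2 -0.89). miR-9-5p was the last of them. In WT cells miR-454-3p was at 25.03 and 25.08 and miR-140-5p at 12.7 and 13.5, while miR-152 went from 36.5 to 21.8. miR-454-3p lay at the 2-fold line itself, and its call was lost when the table was centred on mature miRNAs (log2 -0.92).

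A change in the ratio of the arms of 1 hairpin does not depend on the offset between the tables, because both arms are read in the same libraries. In 28 hairpins both arms had a mean level of at least 4 over the 2 centred groups. Larger and smaller name the arms by their means in WT cells without LPS. The smaller arm so named moved up against the larger one in 9 of them and down in 19. The median difference was -0.14 on the log2 scale. In 5LO-KO cells without LPS the arm named smaller was the larger one for miR-223 (51.1% of the hairpin) and miR-199b (57.5%), both among the 19. The interval with library spread lay above 0 for 2 hairpins, miR-146b and miR-21, and below 0 for none. The counting interval lay above 0 for 5 hairpins (miR-146b, miR-21, miR-221, miR-181a and miR-423) and below 0 for 3 (let-7d, miR-28 and miR-181c).

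In the miR-146b hairpin the 5p arm was 259 times the 3p arm without LPS and 29.8 times with LPS, so the 3p share of the hairpin went from 0.38% to 3.24%. The 3p arm gained 3.12 on the log2 scale over its partner (interval 1.49 to 4.74). In WT cells the gain was 2.72. In the miR-21 hairpin the 5p arm was 54.2 times the 3p arm without LPS and 17.9 times with LPS, a gain of the 3p arm of 1.59 (interval 0.06 to 3.12), beside 1.22 in WT cells.

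The passenger arm gained 1.195 in the miR-221 hairpin (counting interval 0.57 to 1.82) and 0.95 in the miR-181a hairpin (0.50 to 1.40). The WT values were 1.07 and 0.79. In the miR-423 hairpin the smaller arm gained 0.35 (0.02 to 0.68), against -0.24 in WT cells. For let-7d the passenger arm lost 1.28 (counting interval -2.16 to -0.40), against 0.03 in WT cells. For miR-28 the smaller arm, miR-28-5p, had 19, 8 and 2 reads without LPS and 4, 0 and 3 with LPS, and its loss of 1.57 (counting interval -2.87 to -0.26) stood beside a loss of 0.73 in WT cells. With means of 8.48 and 2.26, it reached the level of 4 only through the group without LPS. In the miR-181c hairpin the smaller arm lost 0.55 (counting interval -1.07 to -0.02), against 0.04 in WT cells.

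**Figure D3:**
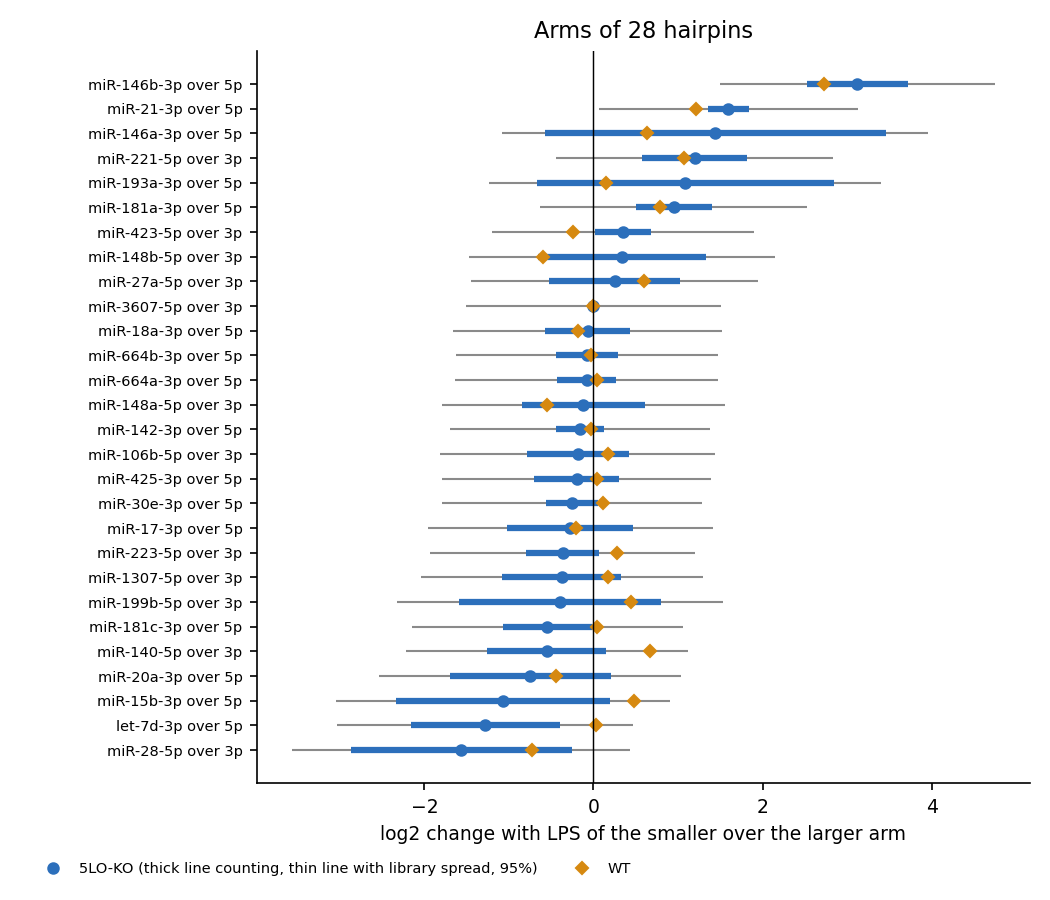
For 28 hairpins, the centred log2 change with LPS of the smaller arm minus that of the larger arm, in 5LO-KO cells (circles, with thick 95% counting intervals and thin intervals that add library spread) and WT cells (diamonds). Arms are named larger and smaller by their means in WT cells without LPS. The thin line lies wholly above 0 for miR-146b (3.12) and miR-21 (1.59) and crosses 0 for the other 26.

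For 100 RNAs with both 5LO-KO means at most 10 and at least 10 reads over the 6 libraries, every library could be compared. In 5 of them (5%) all libraries with LPS lay above all those without, and in 5 (5%) all lay below. With 3 libraries against 3 the smallest two-sided p of an exact permutation test is 0.1, so no test was made. The shares in the 2 directions were equal, and the RNAs below are given as a description of their libraries, with none called higher or lower from this order. The 5 higher were miR-193a-3p, miR-193a-5p, miR-29a-3p and the piRNA entries piR_007819 and piR_016677. The 5 lower were miR-598, miR-660-5p, miR-671-3p, miR-671-5p and piR_011186. These RNAs, and those of the next 3 paragraphs, were picked out by the order of their libraries.

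Reads of both arms of miR-193a, a miRNA linked to growth arrest in myeloid leukaemia, could be recovered. miR-193a-3p had 2, 4 and 0 reads without LPS and 6, 8 and 5 with LPS. miR-193a-5p had 6, 4 and 2 reads without LPS and 6, 5 and 7 with LPS. The groups of the 5p arm stand apart only after scaling, at 2.76 to 4.49 against 5.23 to 9.77 normalized reads. miR-29a-3p, which represses collagen and DNA methyltransferase mRNAs, had 8, 5 and 3 reads against 13, 5 and 6.

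Of the RNAs listed as lower, miR-598 had 14, 7 and 5 reads without LPS and 0, 2 and 0 with LPS, a log2 change of -3.19 with a counting interval of -5.17 to -1.22. miR-671-3p had 8, 2 and 2 reads without LPS and was listed at 0 with LPS, which is at least 3.14-fold lower when 3 reads over the group are taken as the floor. In WT cells miR-671-3p was listed at 0 without LPS and at 1.01 with LPS. Intervals and floors cover counting error only, and single reads are scarce in these tables, with 64 libraries of 1 read against 299 of 2 reads among the low 5LO-KO means without LPS.

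At slightly higher levels, miR-16-2-3p, the passenger arm of miR-16-2, had 17, 17 and 8 reads without LPS and 3, 0 and 0 with LPS. Its log2 change was -3.998 with a counting interval of -5.97 to -2.02, and it is among the 6.99% of RNAs with means up to 20 whose libraries lay wholly lower. In WT cells it had 7 reads in each library without LPS and 13, 5 and 0 with LPS, so the WT groups overlapped. The centred mean of its 5LO-KO groups was below 10, so it is not among the RNAs counted above.

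**Figure D4:**
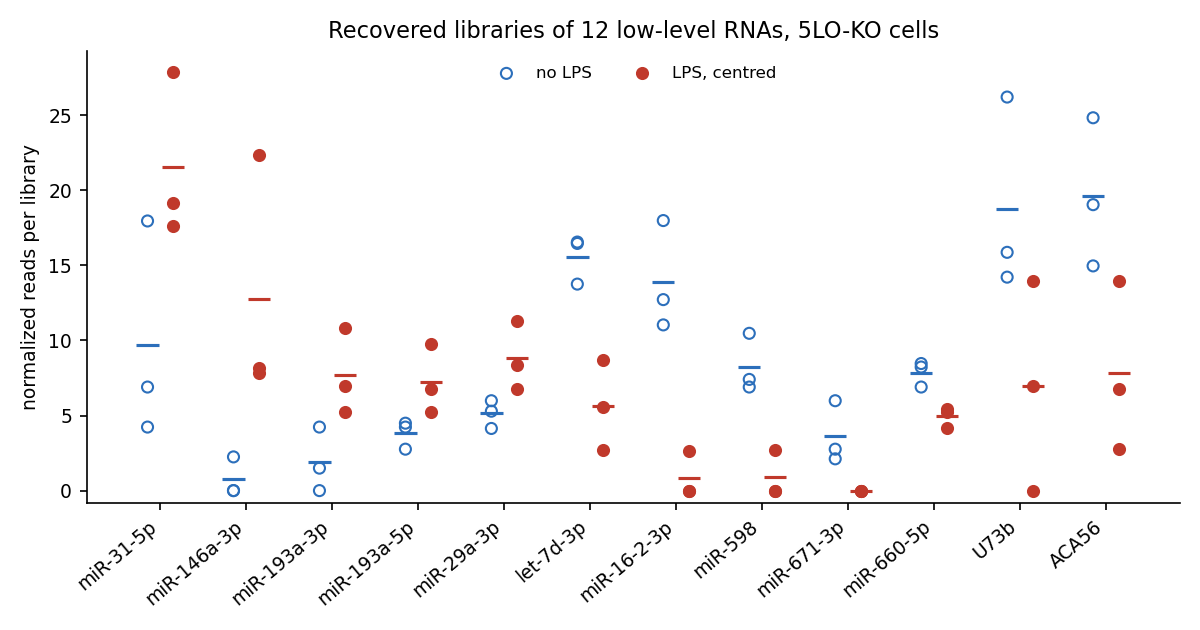
Normalized reads in each recovered 5LO-KO library of 12 low-level RNAs, without LPS (open circles) and with LPS after centring (filled circles), with the group mean as a line. The groups overlap for miR-31-5p and lie apart for the other 11; these 11 were shown because they lie apart.

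The remaining miRNA groups held no call, with 1 exception. Over the miR-17-92 cluster and its paralogs, which promote cell cycle entry, 12 of 15 members were counted and none passed 2-fold, though 11 of the 12 lay below 0. Most mature miRNAs did under this centring, with 69 of the 106 counted in both genotypes below 0. The median was -0.46, with miR-19b-3p (642 and 388) at -0.55, miR-25-3p (581 and 361) at -0.51 and the abundant miR-92a-3p (12461 and 11100.5) at 0.01. All 12 intervals with library spread included 0. The WT median was -0.17.

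The let-7 guide arms, which hold back proliferation, had 9 members counted, none called, and a median of -0.09, from let-7i-5p at -0.34 to let-7e-5p at 0.13. In the miR-30 family 5 were counted and none called (median -0.31). In the miR-181 family 1 of 5 passed 2-fold, miR-181a-3p, and the median was 0.03. In the cluster of miR-99b, let-7e and miR-125a, a single primary transcript, let-7e-5p was at 71.2 and 68.8 (log2 0.13) and miR-125a-5p at 18.0 and 23.97 (log2 0.59, interval -0.60 to 1.78), which became 1.58 without library a of the group without LPS. miR-99b-5p, at 7.88 and 7.55, was below the level counted.

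The miRNAs that mark monocytic cells were present in both groups, apart from miR-424-5p, which was listed with LPS alone, at a mean of 1.97. miR-223-3p was at 74.3 and 58.0, miR-142-3p at 95.2 and 80.2, and miR-142-5p at 394 and 372, and none of the 9 myeloid miRNAs counted was called (median -0.07). Of 33 miRNAs that mark lymphoid, erythroid, epithelial, muscle, liver, neural, mesenchymal or endothelial cells, 7 were in both tables, and miR-143-3p (53.2 and 35.9) and miR-199a-3p (17.8 and 13.5) were the ones with means of at least 10 in both groups. No lymphoid, erythroid, muscle or liver marker was in both tables. The summed level of the mesenchymal and endothelial markers was 80.2 without LPS and 56.5 with LPS, and its part in any result was not tested.

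snoRNAs guide chemical modification of rRNA and made up 59.9% of the summed means without LPS and 60.8% with LPS. Of 275 counted, none was past 2-fold higher and 2 were past 2-fold lower, and both fell. Both were counted only through the group without LPS, where they were high, and both intervals reached 0 with a pseudocount of 1. U73b had 19, 15 and 19 reads without LPS and 8, 0 and 10 with LPS (log2 -1.43, interval -2.75 to -0.10). ACA56 had 20, 18 and 18 reads without LPS and 16, 5 and 2 with LPS (log2 -1.32, interval -2.63 to -0.02). Both are among the 10 of 143 RNAs (6.99%) whose libraries lay wholly lower with LPS after scaling. In WT cells U73b was at 12.1 and 11.7 and ACA56 at 19.99 and 19.02. The values rest on few libraries: U73b was at -0.84 without library b with LPS and -2.43 without library c, and ACA56 was at -0.92 without library c and -2.03 without library a.

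Many snoRNAs are cut from introns of a common host transcript, and the members of 3 hosts are given side by side, with no test of a difference between members. The 10 snoRNAs of GAS5, a growth-arrest transcript, ran from U81 at -0.66 (322681 and 180045) to U47 at 0.41 (28853 and 33874), around a median of 0.01. The 8 of SNHG1 ran from U30 at -0.82 (142455 and 71450) to U22 at 0.63 (597 and 816). Of the 2 of RACK1, U95 was at -0.63 and U96a at 0.23. None of these was called, each interval with library spread included 0, and in WT cells the same snoRNAs lay between -0.20 (U79) and 0.07 (U44).

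Of the 5 RNAs whose LPS effect was lower in 5LO-KO than in WT cells with an interval off 0 (0.923% of 542 counted in both), 3 were tRNA entries, and 1 of these, Tyr-TAC, remained so with tRNA entries centred on their own median. Tyr-TAC had a mean of 113 without LPS and 39.7 with LPS in 5LO-KO cells, a fall of 2.51-fold (log2 -1.33, interval -2.44 to -0.22). In WT cells it went the other way, from 87.6 to 135 (log2 0.80). The difference of -2.13 had an interval of -3.47 to -0.79. Gln-CAA_ went from 10535 to 5719 (log2 -0.70) against 10903 to 15221 in WT cells (log2 0.66), and the difference of -1.37 had an interval of -2.65 to -0.08. For Lys-AAG both changes were upward, 0.43 in 5LO-KO cells (1064 and 1262) and 1.80 in WT cells (2009 and 6180), and the difference of -1.38 had an interval of -2.66 to -0.09.

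Over all 36 tRNA entries counted, the 5LO-KO change was below the WT change in 29 and above it in 7, with medians of 0.25 and 0.58. In WT cells 35 of 36 lay above 0, and in 5LO-KO cells 26 did. The offsets subtracted were -0.18 in both genotypes. Equal sums of all means would have given -0.26 in 5LO-KO and -0.15 in WT cells. Equal sums of mature miRNA means would have given -0.04 in 5LO-KO and -0.14 in WT cells. The differences were not recomputed with these offsets. With each type centred on its own median, an alternative chosen after seeing the data that removes by construction what tRNA entries share, the difference for Tyr-TAC was -1.80 (interval -3.13 to -0.46). Those for Gln-CAA_ (-1.03, -2.31 to 0.25) and Lys-AAG (-1.04, -2.33 to 0.24) then had intervals that include 0. The highest 5LO-KO change was that of Leu-CTG, from 15.2 to 28.5 (log2 1.09, interval -0.11 to 2.28). It was 1.68 without library a, 0.88 without library b and 0.84 without library c of the group without LPS. tRNA entries of 1 anticodon can share reads, so they are not independent of each other. All of these comparisons rest on the means of 4 groups.

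The Y RNAs, which bind the Ro60 protein, all lay above 0 in 5LO-KO cells and below 0 in WT cells. HY1 went from 5092 to 6374 (log2 0.50), HY3 from 1526 to 1781 (0.40), HY5 from 3229 to 3739 (0.39) and HY4 from 16578 to 18378 (0.33). The WT changes ran from -0.14 to -0.05. No Y RNA was called, and for none did the interval of the change or of the difference exclude 0.

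**Figure D5:**
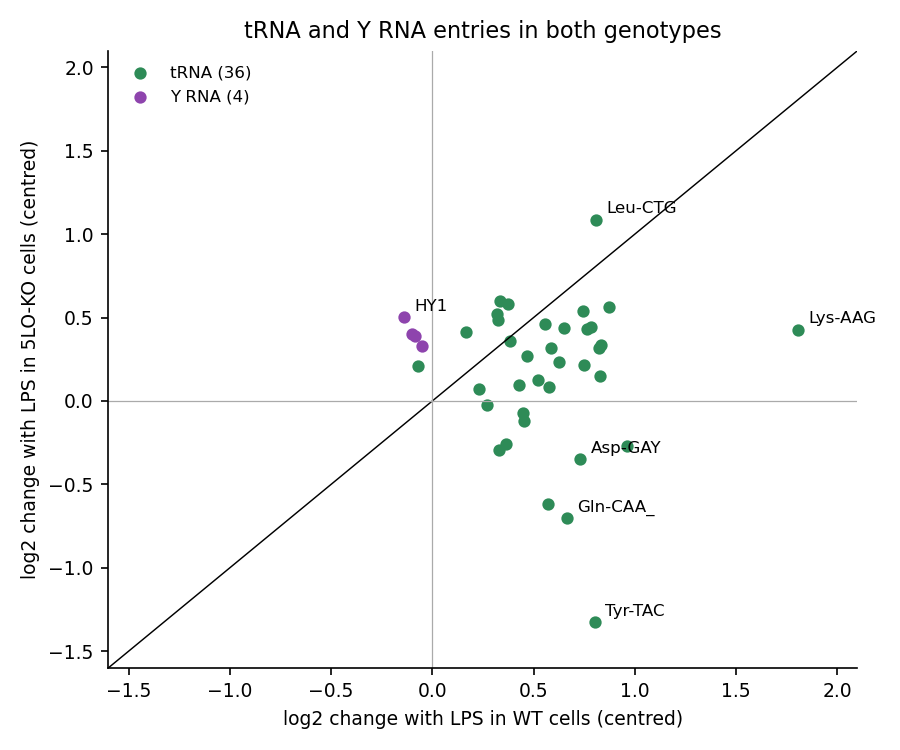
Centred log2 change with LPS of 36 tRNA entries and 4 Y RNAs in WT cells (horizontal axis) and 5LO-KO cells (vertical axis); the diagonal marks equal changes. Of the tRNA entries, 29 lie below the diagonal, with Tyr-TAC lowest at -1.33 in 5LO-KO cells, and the 4 Y RNAs lie above it.

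Among 119 piRNA entries counted, 2 were past 2-fold higher and 1 was past 2-fold lower, and for none of the 3 did the interval exclude 0. piRNAs are germline RNAs, and entries of this kind in other cells often overlap fragments of rRNA, tRNA or snoRNA. piR_001170 went from 11219 to 20755 (log2 1.07, interval -0.00 to 2.14) against -0.20 in WT cells. piR_016980 went from 10.1 to 18.3 (log2 1.04), which was 0.45 without library c of the group without LPS, and 0.83 without library a and 0.93 without library c of the group with LPS. piR_006001 went from 35.2 to 13.9 (log2 -1.16, interval -2.35 to 0.04), and it was -2.39 without library b with LPS and -0.75 without library c. The rRNA entries held no call, with 5S at 2600090 and 2091230 (log2 -0.13).

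Between the genotypes, the difference of the LPS effects had an interval with library spread off 0 for 6 of 542 RNAs counted in both, 1 higher in 5LO-KO cells (0.185%) and 5 lower (0.923%). With the library spread taken from means of 4 to 20, an alternative chosen after seeing the data, 2 were higher and 13 lower. For WT cells with LPS no mean of 10 to 20 gave recovered reads, so the spread of that group stayed that of means of 4 to 10. None of the 106 mature miRNAs counted in both was among the 6. Across these 106 the changes in the 2 genotypes had Pearson's r = 0.85 and Spearman's rho = 0.32, and r = 0.51 and rho = 0.26 without the 3 miR-146 arms. Across 275 snoRNAs they were 0.11 and 0.21. These are descriptions over RNAs of the same 4 groups, which share the tables and their normalization but no library, and RNAs are not independent replicates. Of mature miRNAs the difference was largest in the downward direction for let-7d-3p, miR-9-5p and miR-454-3p, given above, and in the upward direction for miR-30b-5p (34.4 and 44.2 in 5LO-KO cells, 46.7 and 33.5 in WT cells), whose difference of 0.84 had an interval of -0.55 to 2.23.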

How the data were processed

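Small RNA of 12 MM6 samples (3 libraries in each of 4 groups) was sequenced after gel size selection. The authors trimmed the kit's adapters and annotated the reads against hg19 with the web tool omiRas. The study speaks of 3 independent experiments for its sequencing, and the labels do not tie a library to one of them. The authors deposited 2 tables, 1 with LPS and 1 without, each holding per RNA the mean of normalized counts of the WT and of the 5LO-KO group, so the deposited values are signal values without replicates. Which aligner settings and which scaling were applied is not stated. The tables also hold the authors' fold changes, p-values and false discovery rates of 5LO-KO against WT, which were not used.

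The 4 columns of means were joined by RNA, precursors left out. Centring, the level of 10 and the 2-fold call are given with the results. Size factors and reads were recovered from means up to 10 (all 439 and 352 such 5LO-KO means gave whole reads in exactly 1 way), and from means of 10 to 20 where the solution was unique. The library spread was estimated from recovered means of 4 to 10 (56 RNAs in each 5LO-KO group) and applied at every level. No test with p-values was made, since most counted RNAs have means alone and no recovered libraries. The recovery and the intervals were also run on simulated data. These were drawn with the same size factors and the same spread at every level, so the run tests neither of the 2. The settings tried were other centrings, pseudocounts of 1 and 10 (none, 0, in the results), levels of 50 and none, a fold of 1.5, precursors kept, and leaving out recovered libraries. The members, lists and tests were chosen with earlier results of these data known.

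Named RNAs were the members of the lists, per direction the 10 mature miRNAs (5 for other types) of largest change past 2-fold whose interval with library spread excluded 0, or, where fewer than 5 qualified, the 5 largest whose counting interval did, the 5 RNAs of highest mean per type, the 3 per direction listed at 0 in 1 group with the highest other mean, and the 5 mature miRNAs per direction whose LPS effect differed most from WT with a counting interval off 0. RNAs picked by the order of their libraries were chosen after their values were seen. Sequences came from RefSeq (GRCh38.p14), and positions from an exact match to GRCh37 with GENCODE annotation lifted to it. The summed means of the 801 RNAs were 12035100 without LPS and 10066900 with LPS, and the depth in reads per library is not given. Python 3.11.15, numpy 2.4.6, pandas 2.3.3 and matplotlib 3.10.9 were used.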

Additional observations from a re-analysis of the deposited data

Results flagged for a closer look

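For 6 RNAs the LPS effect differed between 5LO-KO and WT cells with an interval with library spread off 0, which is a comparison of 4 group means and gives no p-value. The difference, 5LO-KO minus WT on the log2 scale, was -2.13 for Tyr-TAC, -1.38 for Lys-AAG and -1.37 for Gln-CAA_, with the values given above. The intervals for Lys-AAG and Gln-CAA_ included 0 when each type was centred on its own median. For piR_006001 it was -1.95 (35.2 and 13.9 in 5LO-KO cells, 9.83 and 15.0 in WT cells), with an interval of -3.49 to -0.41. For the entry piR_004801/piR_017295 it was -1.45 (513 and 262 in 5LO-KO cells, log2 -0.79, against 0.66 in WT cells), with an interval of -2.74 to -0.16. The snoRNA HBII-85-4 was the one higher in 5LO-KO cells, at 1.79 (interval 0.31 to 3.28), with 14.6 and 23.8 in 5LO-KO cells (log2 0.88) and a WT change of -0.91.

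The precursor entries, which share reads with their mature arms and were left out of the comparison, are given here with the same offset subtracted. Precursor mir-146a was at 101 and 562 (log2 2.65), mir-146b at 2134 and 7268 (log2 1.95), and mir-31 at 9.70 and 20.2 (log2 1.24, interval -0.01 to 2.496). mir-31 was listed at 0 in both WT groups. Below the level of 10, the interval excluded 0 for mir-147b (1.41 and 5.41, log2 2.12, interval 0.20 to 4.04), mir-598 (8.26 and 0.798, log2 -3.19, interval -5.44 to -0.95) and mir-671 (6.56 and 0.769, log2 -2.91, interval -5.21 to -0.62). These entries were picked by their interval out of all precursor entries, with no share counted, and they rest on few reads. mir-598 and mir-671 share reads with miR-598 and the arms of miR-671, which were picked out above. miR-31-3p, in the table with LPS alone, had a 5LO-KO mean of 2.51 from 2, 5 and 0 reads and was listed at 0 in WT cells.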

How the results depend on the processing

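The counts of RNAs past 2-fold were 10 higher and 6 lower over all RNAs, 7 and 2 over mature miRNAs, and 4 and 4 with the interval off 0. They moved as follows, and the cause was not tested except where fewer or more RNAs were counted by construction. Without centring they were 4 and 11 over all RNAs and 4 and 4 over mature miRNAs. With equal sums of mature miRNAs they were 6 and 10 over all RNAs, with 4 mature miRNAs lower. Centring on mature miRNAs gave 14 and 5 over all RNAs. Centring on mature miRNAs, within type or on equal sums of all means, and precursors kept, left 1 mature miRNA lower. Smaller moves of the counts are not all listed here. A pseudocount of 1 left 1 mature miRNA lower and 1 RNA lower with the interval off 0. A pseudocount of 10 and a level of 50 each gave 5 and 1 over all RNAs, 4 and 0 over mature miRNAs, and 1 lower with the interval off 0. With no level the counts were 37 and 28, 20 and 12, and 8 and 7. A fold of 1.5 gave 41 and 30, with 10 mature miRNAs lower. With precursors kept, also in the offset, and, chosen after seeing the data, with library spread from means of 4 to 20, 9 were higher with the interval off 0. The latter also gave 2 RNAs higher and 13 lower in 5LO-KO than in WT cells, where centring within type, also chosen after seeing the data, gave 1 and 4.

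With means up to 20, the libraries of 7 of 143 RNAs lay wholly higher and those of 10 wholly lower. Among the 100 RNAs with means up to 10, the libraries of 5 lay wholly higher and those of 5 wholly lower. Leaving out 1 library, an alternative chosen after seeing the data, gave 6 to 10 higher and 7 to 16 lower among these 100. Fewer libraries then have to be in order.

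Of 15 named RNAs past 2-fold, 10 fell short of it under at least 1 alternative, 12 other named RNAs passed it under at least 1, and 0 of the 15 turned direction. The standard error with library spread is never below 0.545, more than the centrings move an RNA, so a shift within it shows no stability. miR-146b-3p stayed between 3.97 and 5.18, miR-146a-5p between 2.47 and 2.73, miR-146b-5p between 1.76 and 2.03, miR-21-3p between 1.31 and 1.57, and Tyr-TAC between -1.55 and -1.16. For all of these but miR-146b-3p no library could be left out, because their reads were not recovered. let-7d-3p was -0.71 with a pseudocount of 10.

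No paired analysis was possible because the columns are group means that carry no replicate number. Depth limits low RNAs, the library spread was measured at low means only, and the offset between tables cannot be told apart from a shift of most RNAs with LPS.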

Other observations

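Some RNAs were listed in 1 table alone. The table with LPS held 126 of them, 29 of these mature miRNAs, and the table without LPS held 194, 52 of these mature miRNAs. None had a 5LO-KO mean of at least 10, and the highest means were 2.51 for miR-31-3p with LPS and 5.71 for piR_001168 without it. miR-424-5p, a miRNA of the miR-16 family, was listed with LPS alone, at 1.97 from 3, 3 and 0 reads.

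Of the 801 RNAs, 17 were listed at 0 without LPS alone, 40 with LPS alone and 13 in both 5LO-KO groups. Their highest means in the other group were low and often rested on 1 library. miR-3654, at 0 without LPS, had 0, 5 and 0 reads with LPS, and piR_022676 had 0, 0 and 4. The snoRNA ACA22 had 3, 2 and 1 reads with LPS, spread over all libraries. miR-577, at 0 with LPS, had 10, 3 and 0 reads without it, most of them in library a, and piR_011186 had 2, 6 and 2, most of them in library b.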
